A study of Mus musculus with 4 samples.

Results

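The Zfp900-series genes are the protein-coding mouse zinc finger genes whose symbol is Zfp and a 3-digit number that begins with 9. The count table listed 59 of them among 29300 genes, and the rule that picks them uses symbol and biotype. A further gene with such a symbol, Zfp939, is a transcribed pseudogene and was not a member. RNA had been sequenced from the hippocampus of male C57BL/6 mice aged 7 to 8 months, 2 per group. Control mice received isoflurane anesthesia and tramadol analgesia with no fracture. Mice of the perioperative neurocognitive disorder (PND) model received the same anesthesia and analgesia with a tibial fracture fixed by an intramedullary nail, and tissue was taken on day 1. Both groups were thus exposed to anesthesia, and the comparison is about the added surgery. With 2 mice per group, the p-values below rest on a spread between mice that was estimated jointly over genes.

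Most of these genes encode proteins with a Krüppel-associated box (KRAB) followed by a run of C2H2 zinc fingers. In such proteins the fingers bind DNA, often inside retrotransposons, and KRAB recruits the corepressor TRIM28 (KAP1). TRIM28 in turn brings in the histone H3K9 methyltransferase SETDB1 and heterochromatin protein 1, so that the bound DNA is silenced. The genes arose by repeated local duplication and often lie in clusters of near copies. The roles of most individual members are not established.

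The Pfam entry in the table was KRAB for 56 of the 59 members, and the other 3 were Zfp956, Zfp957 and Zfp964. Their longest annotated coding sequences held a median of 11 C2H2 fingers (range 0 to 21), and 54 members had 5 or more. The encoded proteins had a median length of 486 residues (range 139 to 794). Members lay on 12 chromosomes. The transcripts were poor in G and C, with a median GC content of 39.0% against 49.0% over all genes of the table.

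The fingers show both the family's shared frame and its AT-rich coding sequence. Below is the finger nearest the N-terminus in 5 members that are taken up later, read 5′ to 3′ from the coding sequences of GENCODE M21 (GRCm38). Each has 63 bases, and capitals mark the codons of the 2 cysteines and 2 histidines that hold the zinc ion.
Zfp950, chr19:61120269-61120331, minus strand: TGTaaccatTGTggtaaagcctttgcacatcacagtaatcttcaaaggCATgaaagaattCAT
Zfp932, chr5:110008753-110008815, plus strand: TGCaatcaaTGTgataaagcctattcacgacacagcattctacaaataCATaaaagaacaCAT
Zfp942, chr17:21929032-21929094, minus strand: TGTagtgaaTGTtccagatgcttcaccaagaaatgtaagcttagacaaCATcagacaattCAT
Zfp944, chr17:22339650-22339712, minus strand: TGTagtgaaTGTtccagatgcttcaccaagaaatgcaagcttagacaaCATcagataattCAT
Zfp956, chr6:47963687-47963749, plus strand: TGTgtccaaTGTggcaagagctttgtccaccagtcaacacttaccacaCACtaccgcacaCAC
The Zfp942 and Zfp944 fingers, from 1 cluster of genes on chromosome 17, differed at 2 of the 63 bases. Those of Zfp932 and Zfp950 differed at 16, and those of Zfp956 and Zfp950 at 29. GC content was 36.5% in the Zfp950 finger, 33.3% in that of Zfp932 and 50.8% in that of Zfp956.

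In other members this finger was identical. The finger nearest the N-terminus was the same in Zfp966, Zfp967, Zfp968 and Zfp969 on chromosome 2, as shown here from Zfp969.
Zfp969, chr2:175693815-175693877, minus strand: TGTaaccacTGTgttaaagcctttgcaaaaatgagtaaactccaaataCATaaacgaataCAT
The whole annotated coding sequence of these 4 genes, 1455 bases long, was identical. A second set of 4, Zfp986, Zfp987, Zfp988 and Zfp989 on chromosome 4, also shared the sequence of this finger, although they differed in their number of fingers (5, 14, 14 and 15). To gauge how far reads could be split between copies, the transcripts were scanned in windows of 75 bases. In 23 of the 59 members at least 20% of windows occurred in another gene as well, and in 8 members no window did. How reads that match several genes were counted is not given in the sources used here.

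In PND mice 14 of the Zfp900-series genes rose and 0 fell. Together the 59 members made up 358 and 321 CPM (counts scaled to libraries of 1 common size) in the control mice against 510 and 504 CPM in the PND mice. Both PND mice lay above both control mice, with group means of 340 ± 26.03 and 507 ± 3.62 CPM (SD, n = 2). All 59 members had at least 1 read in some library, and 44 had enough counts to be tested. A gene was taken as a differentially expressed gene (DEG) when its adjusted p in edgeR's quasi-likelihood test was below 0.05 and its fold change was at least 1.5 or at most 0.67. Of the 44 tested members, 14 (31.8%) were higher DEGs, where 6.75% of all 17144 tested genes were. Lower DEGs numbered 0 among the members and made up 2.25% of all genes. No member with a negative fold change had an unadjusted p under 0.05 in edgeR or in DESeq2, and DESeq2 also called 0 lower DEGs. Without control mouse 2 there were 6 higher DEGs among the members and the median log2 fold change was 0.62, and with no filter on low counts there were 7. With a correction for GC content and transcript length, which is described further on, there were 0, and the median was -0.032. In bulk tissue, fewer cells of a type and less RNA per cell cannot be told apart.

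The direction was shared beyond the DEGs. The log2 fold change was positive in 41 of the 44 tested members and negative in 3. Its median was 0.66 (quartiles 0.37 and 0.88, range -0.23 to 1.64), and over all tested genes the median was 0.01. Both PND mice were above both control mice in 38 members (33.2% of all genes), below in 2 (32.2% of all genes), and overlapping in 4. The median standard error of a member's log2 fold change was 0.20. Among the 44 members, the SD between mice of a group on the log2 scale was 0.14 for control and 0.10 for PND mice. Some low members, among them Zfp953, Zfp965 and Zfp992, had under 10 reads in both control mice and more than 10 in both PND mice. They passed the filter on low counts (minimum count 10) through the PND mice, which favours a positive sign. Such members are included in the counts of 41 and 38, and Zfp953 is a DEG.

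**Figure D1:**
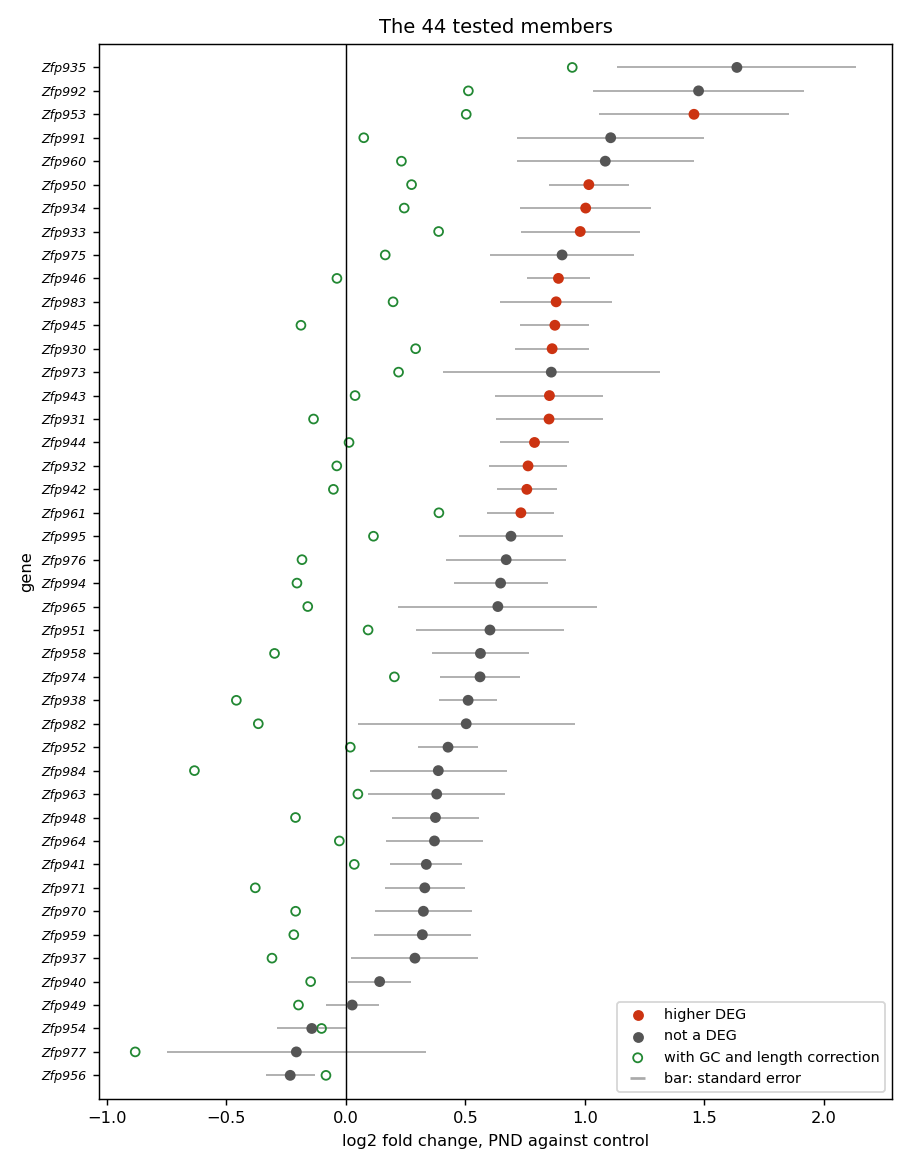
Log2 fold change of PND against control mice for the 44 tested members, with bars for the standard error. Red points are the 14 higher DEGs, grey points the other members, and open green circles the values after correction for GC content and transcript length. Filled points lie to the right of 0 for 41 members, while the open circles are spread on both sides of 0.

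Zfp950 on chromosome 19 was the member with the highest level. Its level was 47.7 and 32.6 CPM in the control mice against 81.3 and 81.0 CPM in the PND mice. The PND mice were nearly equal and both lay well above the control mice, which differed from each other. The log2 fold change was 1.02 ± 0.17 (SE; adjusted p = 0.00823 in edgeR's quasi-likelihood test), a 2.02-fold higher level. Zfp950 alone gave 14.2% of all reads assigned to the members. Per kb of its median transcript length it reached 79.9 CPM, above every other member. That median over annotated transcripts was 758.5 nt, short for a protein of 609 residues, so ranks by CPM per kb lean on short annotated transcripts.

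Zfp932 on chromosome 5 was next by this measure, with 33.6 CPM per kb of a median transcript length of 868 nt. By CPM alone Zfp956 stood above Zfp932 in control mice (means 31.7 and 21.6) and below it in PND mice (27.0 and 36.6). ZFP932 is known to bind endogenous retroviruses of the ERVK class and has a close paralog in Gm15446. Its level was 25.4 and 17.9 CPM in the control mice against 36.4 and 36.9 CPM in the PND mice. Again the PND mice agreed closely and the control mice were lower and further apart. The log2 fold change was 0.76 ± 0.16 (SE; adjusted p = 0.0185, edgeR). Of the 75-base windows of Zfp932, 26.4% occurred elsewhere, mostly in Gm15446, so that reads could be split between both genes. Gm15446, which is no member, had 444 and 367 reads in the control mice against 555 and 576 in the PND mice. It was a higher DEG as well, with a log2 fold change of 0.59 (adjusted p = 0.0219, edgeR).

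Among the 5 members with the highest level per kb, the other 3 were Zfp961, Zfp949 and Zfp974. Zfp961 on chromosome 8 had 8.65 and 8.43 CPM in the control mice against 13.6 and 14.8 CPM in the PND mice. The groups were clearly separated, with a log2 fold change of 0.73 ± 0.14 (SE; adjusted p = 0.0131, edgeR), the smallest of the 14 DEGs. An exon of Zfp961 overlaps Cyp4f18 on the opposite strand, and the strand setting of the counting is not given in the sources used here. Zfp974 had 8.82 and 7.22 CPM in control mice and 12.2 and 11.4 CPM in PND mice. It missed the threshold (log2 fold change 0.56, adjusted p = 0.0502, edgeR), although its groups did not overlap. Zfp949, at 18.9 and 17.6 CPM in control mice and 18.4 and 18.8 CPM in PND mice, showed overlapping groups and a log2 fold change of 0.03 ± 0.11.

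**Figure D2:**
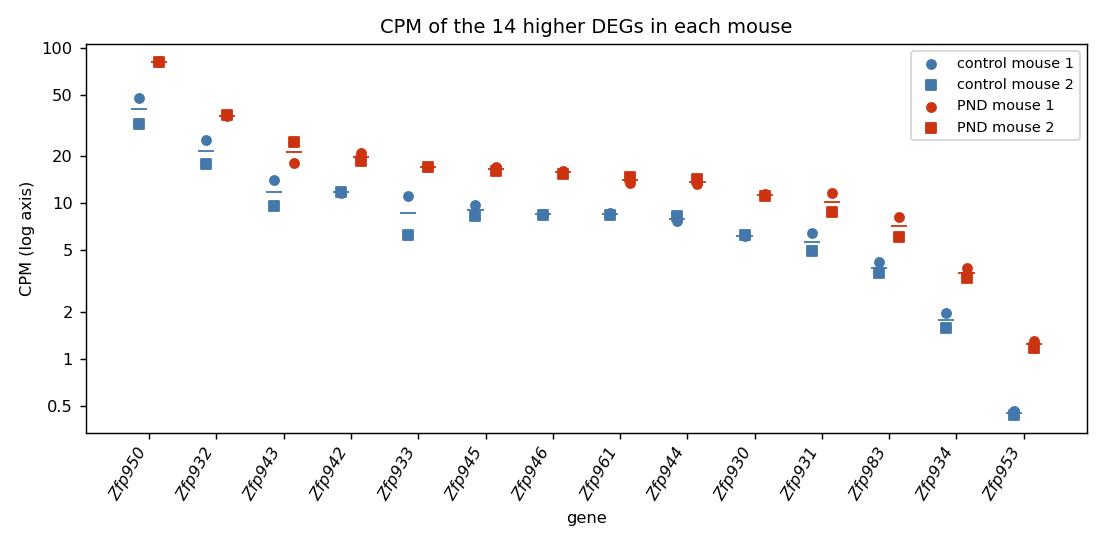
CPM on a log axis for the 14 higher DEGs in each mouse, in blue for control and red for PND mice, with circles for mouse 1, squares for mouse 2 and short lines for group means (n = 2). Both red symbols lie above both blue symbols for every gene, from Zfp950 with a PND mean of 81.1 CPM down to Zfp953 with 1.25 CPM.

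The cluster on chromosome 17 held 6 of the 14 DEGs. Members whose starts lay within 500 kb of the end of the one before were joined into clusters. This gave 8 clusters with 41 members and left 18 members alone. On chromosome 17, from 21567046 to 22867134 (mm10, positions as in the table), 10 members lay within 1300 kb. Of these 10, 9 were tested and 6 were higher DEGs, and both PND mice exceeded both control mice in all 9. Over all genes these shares were 6.75% and 33.2%. The 9 tested members had a GC content of 36.0% to 40.7%, in the lowest eighth of all genes, where 34.8% were higher DEGs. With the correction for GC content and length none of the 6 was called, and their log2 fold changes were -0.19 to 0.20. The median log2 fold change was 0.79 (range 0.38 to 0.89). At most 9.73% of the windows of any member here were shared with another gene.

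Within this cluster, Zfp946 had the smallest adjusted p of all members. Its level was 8.59 and 8.48 CPM in the control mice against 16.1 and 15.5 CPM in the PND mice. The mice of each group were nearly equal, and the log2 fold change was 0.89 ± 0.13 (SE; adjusted p = 0.00665, edgeR). Zfp945 went from 9.75 and 8.32 CPM to 17.1 and 16.1 CPM, with a log2 fold change of 0.87 (adjusted p = 0.00843). It has the lowest GC content of the tested members, at 36.0%. Zfp944 rose from 7.72 and 8.26 CPM to 13.4 and 14.3 CPM (log2 fold change 0.79, adjusted p = 0.0112). Zfp942, whose finger nearly matches that of Zfp944, rose from 11.7 and 11.9 CPM to 21.2 and 18.7 CPM (0.76, adjusted p = 0.00875). In these 4 genes the groups were apart by more than the mice within a group.

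The remaining 2 DEGs of the cluster varied more between mice. Zfp943 had 14.1 and 9.63 CPM in control mice and 18.1 and 24.6 CPM in PND mice, with a log2 fold change of 0.85 ± 0.23 (adjusted p = 0.0366, edgeR). Its exons overlap Gm9772 on the opposite strand. Zfp983 had 4.18 and 3.56 CPM in control mice and 8.15 and 6.10 CPM in PND mice, with a log2 fold change of 0.88 ± 0.23 (adjusted p = 0.0373), and it overlaps CAAA01141682.1 on its own strand. Groups of both genes did not overlap. When 1 mouse was left out, the log2 fold change was between 0.60 and 1.14 for Zfp943 and between 0.64 and 1.08 for Zfp983. DESeq2 did not call Zfp983 (adjusted p = 0.0539). Of the members that were no DEG, Zfp995 had a log2 fold change of 0.69 (adjusted p = 0.0619), Zfp994 of 0.65 (adjusted p = 0.0544) and Zfp948 of 0.38 (adjusted p = 0.18). Zfp947, with 6 to 12 reads per mouse, was not tested.

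Zfp942 and Zfp943 start back to back. In RefSeq (GRCm38.p6) their start sites lie 95 bases apart on opposite strands, so that a single stretch of DNA lies upstream of both. The 94 bases between the starts, at chr17:21962465-21962558, are given on the plus strand with each CG dinucleotide in capitals.
Zfp942-Zfp943: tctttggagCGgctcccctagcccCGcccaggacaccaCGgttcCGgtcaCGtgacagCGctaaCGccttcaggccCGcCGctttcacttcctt
The stretch held 9 CG dinucleotides, and its GC content was 64.9%. Its letters were far richer in G and C than the transcripts on either side, at 38.3% for Zfp942 and 38.2% for Zfp943. Zfp944 is likewise paired with Zfp758, another zinc finger gene that is no member, with starts 63 bases apart. Zfp758 had 102 and 81 reads in control mice and 207 and 199 in PND mice, a log2 fold change of 1.26 (adjusted p = 0.00704, edgeR). Zfp758 was singled out after its values were seen, and 6.75% of all genes were higher DEGs, so nothing is read from the pairing. Zfp931, Zfp953 and Zfp975 each had the start of a predicted gene on the opposite strand 93 to 132 bases away, and for those neighbours no fold change was obtained.

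Promoters were examined for 50 members that matched the RefSeq table by symbol, each from 250 bases before to 50 after the start. Their median GC content was 49.2%, against 58.3% over 15582 promoters of genes in the count table. Among members the median was 55.0% for 12 of the DEGs, 49.3% for 27 tested members that were no DEG and 47.0% for 11 untested ones. The letters GCATGCG, the middle of the nuclear respiratory factor 1 motif, were found on either strand in 0 of the 50 and in 5.17% of all promoters. The TATA box letters TATAAA occurred in 0 of 50 against 9.44% of all, and ATGGCG, from the YY1 motif, in 6 of 50 against 12.6% of all. These are matches of letters in a window and not measured binding sites. The windows are not all separate: those of Zfp942 and Zfp943 overlap, that of Zfp944 nearly repeats that of Zfp942, and all of these are DEGs. Matching by symbol set no limit on distance, and for Zfp983 and Zfp993 the start used lies kilobases before the gene's listed start.

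The largest cluster, on chromosome 4, was hardly measurable. It spans 1980 kb from 145868794 to 147848366 (mm10) and holds 13 members, of which 5 were tested. This cluster is known for its recent expansion in the mouse lineage and for its part in silencing endogenous retroviruses. Of these 5, 1 was a higher DEG, beside 6.75% of all genes and 34.8% of those in the lowest eighth of GC content. It was Zfp933, with 11.1 and 6.29 CPM in control mice and 17.1 and 17.1 CPM in PND mice. The control mice were far apart, but both were below the PND mice, and the log2 fold change was 0.98 ± 0.25 (SE; adjusted p = 0.0316, edgeR). For Zfp933 it was between 0.62 and 1.43 when 1 mouse was left out. None of its windows was shared with another gene.

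The other 4 tested members of the cluster were at low levels. Zfp992 had 6 and 9 reads in control mice and 16 and 23 in PND mice, with a log2 fold change of 1.48 ± 0.44 (adjusted p = 0.0525, edgeR). Zfp991 had 10 and 20 against 29 and 31 reads, with a log2 fold change of 1.11 ± 0.39 (adjusted p = 0.0821). Of its windows 75.9% were shared, most often with the pseudogene Znf41-ps. Their groups did not overlap, yet neither passed the test. Zfp982 and Zfp984 had log2 fold changes of 0.50 and 0.39 (adjusted p = 0.457 and 0.365). The 8 untested members were Zfp986, Zfp987, Zfp993, Zfp989, Zfp988, Zfp978, Zfp985 and Zfp979, with between 0 and 11 reads per mouse.

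**Figure D3:**
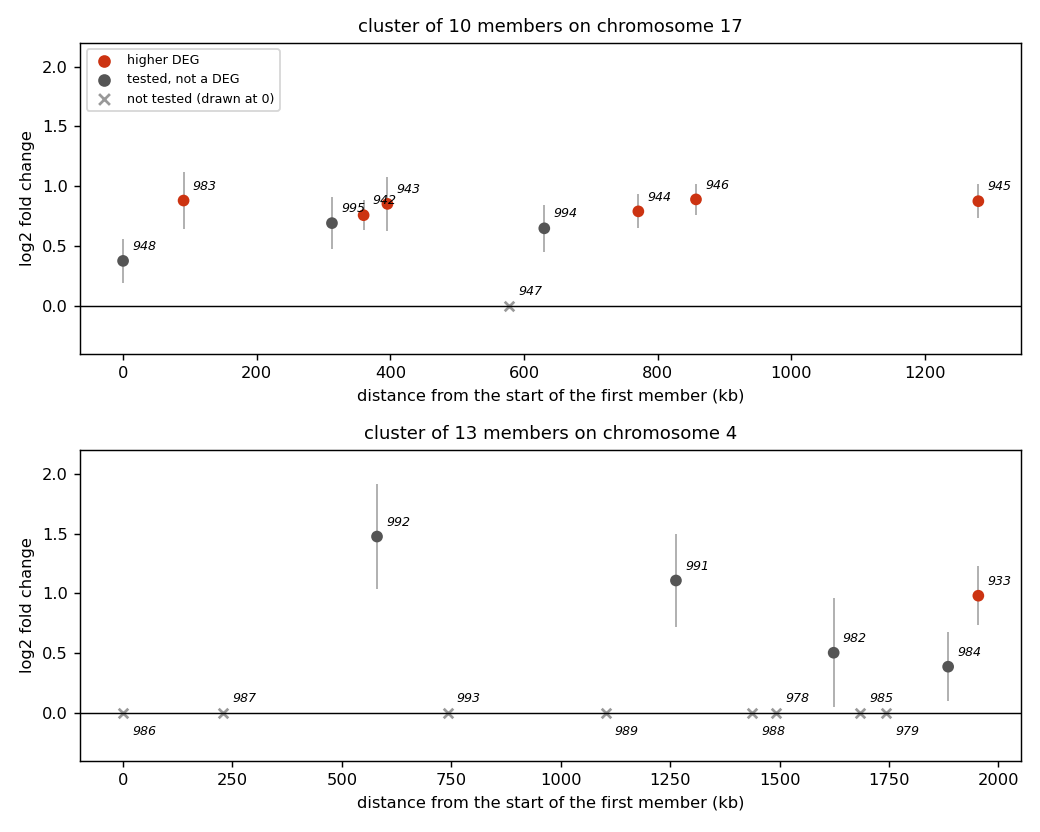
Log2 fold change (PND against control, bars for the standard error) of the members of the clusters on chromosomes 17 and 4, by distance in kb from the start of the first member. Labels give the number in the gene's symbol, red points are higher DEGs, grey points other tested members, and crosses at 0 mark members that were not tested. In the upper panel 6 of 9 tested members are red, and in the lower panel 1 of 5, where 6.75% of all genes and 34.8% of those in the lowest eighth of GC content were higher DEGs.

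Chromosome 2 carried the next clusters, 2 of them with 4 members each. In the cluster from 177464733 to 178078476 (mm10) Zfp931 was a DEG. It had 6.44 and 4.92 CPM in control mice and 11.7 and 8.83 CPM in PND mice, with a log2 fold change of 0.85 ± 0.22 (adjusted p = 0.0357, edgeR). Its neighbours Zfp970 and Zfp971 had log2 fold changes of 0.32 and 0.33 and were no DEGs (adjusted p = 0.284 and 0.197), and Zfp972 was not tested. The cluster from 175372436 to 175931100 held Zfp968, Zfp969 and Zfp966, which are 3 of the genes with identical coding sequence, besides Zfp965. Zfp965 had 9 reads in each control mouse and 12 and 14 in the PND mice (log2 fold change 0.64 ± 0.42, adjusted p = 0.306), and 94.6% of its windows were shared.

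The last 3 DEGs lay outside the clusters above. Zfp930 on chromosome 8 had 6.15 and 6.24 CPM in control mice and 11.5 and 11.1 CPM in PND mice, with close agreement within each group (log2 fold change 0.86 ± 0.15, adjusted p = 0.0107, edgeR). None of its windows was shared. Zfp934 on chromosome 13 had 1.97 and 1.59 CPM against 3.83 and 3.32 CPM (1.00 ± 0.27, adjusted p = 0.0396). Zfp953, also on chromosome 13, was the DEG with the lowest level, at 8 reads in each control mouse and 21 and 20 in the PND mice (1.46 ± 0.40, adjusted p = 0.04). Zfp934 and Zfp953 share exons on their own strand with other annotated genes, and neither was called when any 1 of the 4 mice was left out.

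Zfp935, next to Zfp934, had the largest log2 fold change of all members, 1.64 ± 0.50, but was no DEG (adjusted p = 0.0555, edgeR). It had 15 and 5 reads in control mice and 31 and 27 in PND mice. Its log2 fold change was between 1.01 and 2.65 when 1 mouse was left out, so that its place as the largest rests on single mice. The control mice differed 3-fold in reads, and 57.5% of its windows were shared. Its exons overlap a second annotated gene of the same symbol.

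At the other end, 3 members had negative fold changes and none of them passed the test. Zfp956 on chromosome 6 is among the members with no KRAB entry and has the highest GC content of those tested, 54.3%. It had 30.4 and 33.0 CPM in control mice and 25.6 and 28.3 CPM in PND mice, with a log2 fold change of -0.23 ± 0.10 (adjusted p = 0.143, edgeR). Zfp954, with the next highest GC content of 51.1%, had 10.2 and 10.3 CPM against 9.41 and 9.12 CPM (-0.14 ± 0.14, adjusted p = 0.513). In these 2 genes both PND mice were below both control mice. Zfp977 had 16 and 9 reads against 13 and 7, with overlapping groups (-0.21 ± 0.54, adjusted p = 0.812).

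A further 12 members had an unadjusted p under 0.05 without being DEGs, with log2 fold changes from 0.43 to 1.64 and adjusted p from 0.0249 to 0.0958 (edgeR). Zfp938 was the one with an adjusted p below 0.05, and its fold change of 1.43 missed the minimum. It had 14.2 and 13.2 CPM in control mice and 20.3 and 18.8 CPM in PND mice. Members were also split by CPM per kb of median transcript length, where 6.75% of all genes of any level were higher DEGs. Of the 22 tested members with the higher CPM per kb, 10 were DEGs (median log2 fold change 0.63, median SE 0.15), and of the 22 with the lower CPM per kb, 4 were (median 0.66, median SE 0.29).

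The 15 untested members were near the limit of detection. None exceeded 12 reads in any mouse. Their reads summed to 25 and 34 in the control mice against 51 and 55 in the PND mice. At least 20% of windows were shared in 12 of the 15. Zfp967 had 0, 0, 0 and 2 reads, and Zfp987 had 1 read in a single PND mouse. At this depth no difference could be measured for these genes one by one.

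Members were also split by shared sequence. Of 33 tested members with under 20% shared windows, 13 (39.4%) were higher DEGs, 30 fold changes were positive and 3 negative, and the median on the log2 scale was 0.65. Of 11 with more, 1 (9.09%) was, all 11 fold changes were positive, and the median was 0.76. The median SE was 0.37 in these 11 against 0.20 in the 33, so precision differed between the sets. Among all genes 6.75% were higher DEGs, and in the lowest eighth of GC content 34.8% were.

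GC content moved with these results. The log2 fold change across all tested genes went down with rising GC content, and 34 of the 44 tested members fell in the lowest eighth of genes by GC content (28.7% to 42.8%). In that eighth 34.8% of all 2140 genes were higher DEGs and the median over them was 0.60 on the log2 scale, and 13 of the 34 members (38.2%) were, with a median of 0.78. In the second eighth 11.3% of all genes were higher DEGs, and 1 of 7 members was. Among the 44 members themselves, GC content and log2 fold change had a Spearman correlation of -0.57, given as a description over genes from the same 4 libraries. The DEGs had a median GC content of 38.5% and the other tested members of 40.2%. When the counts of each library were corrected for smooth trends with GC content and transcript length, 0 members were DEGs, and 0.426% of all genes were higher and 0.455% lower. The members' median log2 fold change was then -0.032, with 21 positive and 23 negative values. An unadjusted p under 0.05 was left for Zfp961 (log2 fold change 0.39) and, in the negative direction, Zfp938 (-0.46). Such a correction removes any difference that is itself tied to GC content, and the part of GC content in the result was not tested.

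**Figure D4:**
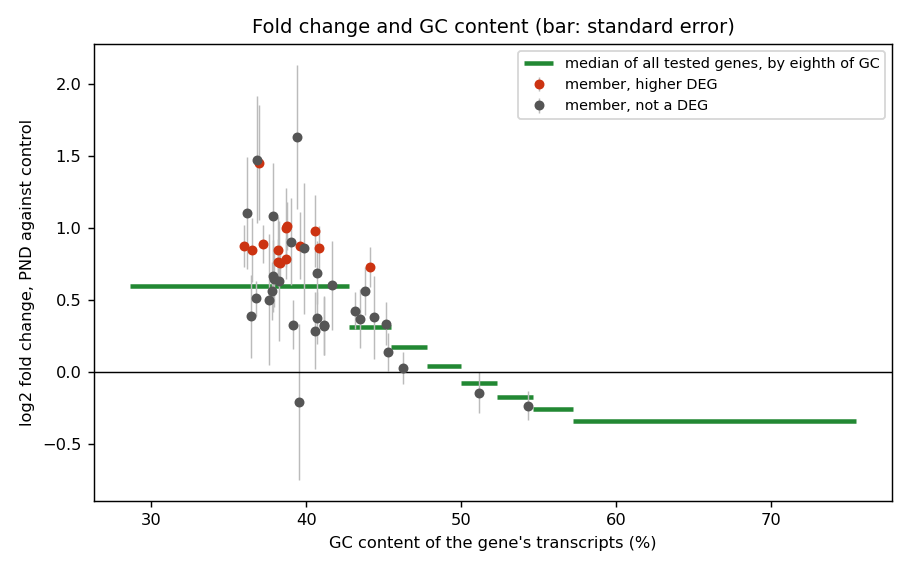
Log2 fold change (PND against control) of the 44 tested members against the GC content of their transcripts in percent, with bars for the standard error, red for higher DEGs and grey for the others. Green lines give the median of all tested genes in each eighth of GC content, from 0.60 in the lowest to -0.34 in the highest, and the members with the highest GC content lie near the lines.

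Compared with the rest of the zinc finger genes, the members had a larger share of DEGs and a lower GC content. Of 283 other tested Zfp genes, 31 were higher and 7 lower DEGs. The log2 fold changes of the 283 had a median of 0.10, and their median GC content was 46.9%. The 144 among them with a KRAB entry had 19 higher and 0 lower DEGs and a median of 0.37. The 139 without KRAB had 12 higher and 7 lower and a median of -0.02. In the lowest eighth of GC content the shares lay closer together, at 13 of 34 for the members, 17 of 57 for other KRAB genes (median 0.58) and 10 of 20 for those without KRAB (median 0.58). The difference between these groups of genes was not tested.

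**Figure D5:**
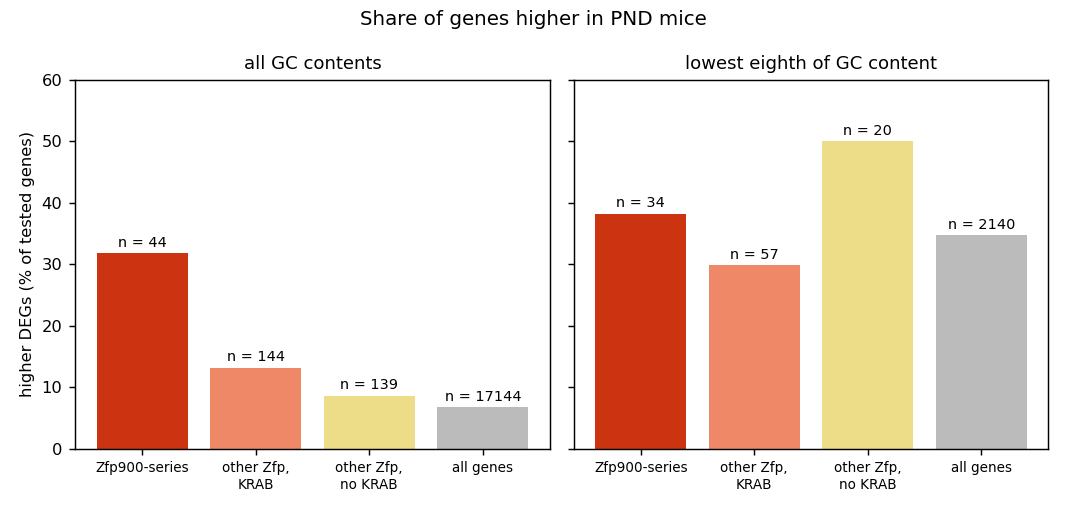
Higher DEGs as a percent of tested genes among the Zfp900-series genes, other Zfp genes with and without a KRAB entry, and all genes, with the number of tested genes above each bar. The left panel holds genes of all GC contents, where the members stand highest at 31.8%, and the right panel the lowest eighth of GC content, where the members' 38.2% stands beside 34.8% of all genes and below the other Zfp genes without KRAB, of which 10 of 20 were higher DEGs.

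The partners through which KRAB proteins act were looked at next. Of 37 listed corepressor and heterochromatin genes, all tested, 6 (16.2%) were higher DEGs and 0 lower, beside 6.75% and 2.25% of all genes, and the median over the list was 0.17 on the log2 scale. Without the fold change minimum, 12 were higher and 6 lower at an adjusted p below 0.05 in edgeR. At an unadjusted p under 0.05, 6 had negative fold changes in edgeR, and DESeq2 also called 0 lower DEGs. Trim28, which encodes the corepressor that KRAB binds, had 155 and 153 CPM in control mice and 123 and 114 CPM in PND mice. Its log2 fold change was -0.37 ± 0.07 (adjusted p = 0.0105, edgeR), smaller than the minimum for a DEG. Setdb1, the methyltransferase recruited by TRIM28, was at 57.9 and 52.8 CPM and 58.9 and 57.7 CPM, with no detectable difference (0.07 ± 0.08, adjusted p = 0.535). Dnmt1, the maintenance DNA methyltransferase, had a log2 fold change of -0.25 (adjusted p = 0.0394), and Cbx5, which encodes heterochromatin protein 1 alpha, of 0.43 (adjusted p = 0.00562), both short of the minimum. With the correction for GC content and length, Dnmt1 was at -0.11 (adjusted p = 0.449, edgeR) and Cbx5 at 0.02 (adjusted p = 0.865).

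The 6 corepressor genes that rose included Cbx3, which encodes heterochromatin protein 1 gamma. Cbx3 had 29.0 and 27.0 CPM in control mice and 58.5 and 63.6 CPM in PND mice, a log2 fold change of 1.13 ± 0.09 (adjusted p = 0.00419, edgeR). Atrx, a chromatin remodeller of heterochromatin, went from 134 and 130 CPM to 234 and 261 CPM (0.91 ± 0.07, adjusted p = 0.00419). Fam208a, Mphosph8 and Pphln1 encode the subunits of the HUSH complex, which silences retroelements through SETDB1. Their log2 fold changes were 0.84, 0.69 and 0.69 (adjusted p = 0.00617, 0.0048 and 0.00619). With the correction for GC content and length, 0 of the 37 were DEGs, with 7 positive and 6 negative at an unadjusted p under 0.05. Cbx3 then had a log2 fold change of 0.56 (adjusted p = 0.0381, edgeR), short of the fold change minimum. Rbbp4 (-0.46, adjusted p = 0.0381) and Rbbp7 (-0.42, adjusted p = 0.0394) were negative, also short of it.

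Libraries held between 15763432 and 18573386 reads assigned to genes, and replicate mice differed by more than sampling noise (chi-square per degree of freedom 12.3 in control and 7.77 in PND mice). The tissue label was checked with markers of hippocampal neurons, all 10 of which were detected, with 0 higher and 1 lower DEG and a median of -0.12 on the log2 scale. Of 24 markers of astrocytes, microglia, oligodendrocytes, endothelial cells and choroid plexus, 2 were higher DEGs and 0 lower. Summed choroid plexus markers varied from 127 CPM in control mouse 1 to 5418 CPM in control mouse 2, with 2025 and 3441 CPM in the PND mice. Of 6 nuclear-retained RNAs 3 were higher DEGs, and 9 of 12 mitochondrially encoded mRNAs were, beside 6.75% of all genes. The mitochondrial mRNAs had a median GC content of 37.4%, in the eighth where 34.8% of all genes were higher DEGs. The part of these values in the members' result was not tested.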

How the data were processed

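Hippocampal mRNA of 2 control and 2 PND mice was sequenced as 150-nt paired reads. The authors deposited raw counts per gene, with positions on mm10. The submitters' processing notes name HISAT2 2.1.0, Bowtie2 2.2.3, TopHat2 and HTSeq 0.6.0. Strand setting and treatment of multiply mapped reads are not given in the sources used here. Totals were 17562999, 18573386, 15763432 and 16576331 counts. The table's own columns of the comparison (fold changes and p-values) were not used.

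Groups came from the labels. The study's methods state 2 mice in each group, and the labels say no more of the replicates. The p-values set the difference between groups against a spread between replicates estimated jointly over genes. Genes with a minimum count of 10 (filterByExpr) were scaled by TMM and tested on all 17144 genes with edgeR 4.0.16 (quasi-likelihood, Benjamini-Hochberg) in R 4.3.3. CPM used TMM library sizes. DESeq2 1.42.0 and a GC and length correction (mgcv 1.9.3) were alternatives. The fit was tested on simulated data, where changed genes were drawn above a minimum mean CPM. It recovered 77.6% of those changed 2-fold, counted by adjusted p and direction alone. GC content, length, fingers and shared windows came from GENCODE M21, where 55 of 59 members have the table's position. Members and lists were chosen with earlier results of these data known.

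Named genes were all member DEGs, the 3 lowest and 3 highest fold changes, the 5 highest CPM per kb, members of the 3 largest clusters, and corepressor DEGs with Trim28, Setdb1, Cbx5 and Dnmt1. Of the 6 corepressor DEGs, 1 is not reported here by name. Gm15446, Zfp758, Zfp938, Zfp967, Zfp975, Rbbp4 and Rbbp7 were named after their values were seen.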

Additional observations from a re-analysis of the deposited data

How the results depend on the processing

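Of the 14 higher DEGs among the members, 14 were also called with RLE size factors and 11 with DESeq2. With no filter on low counts 7 members were called. Leaving out each mouse in turn gave 6 to 12 called members, of which 6 to 11 were among the 14, the lowest without control mouse 2. Zfp942, Zfp944, Zfp946, Zfp945, Zfp950 and Zfp930 were called whichever mouse was left out. The correction for GC content and length gave 0 member DEGs and a median log2 fold change of -0.032 alone and -0.026 together with a replicate block. With the correction alone, 23 of the 44 tested members had a negative log2 fold change in place of 3. Among the DEGs it turned under both settings for Zfp945 (-0.19 and -0.19), Zfp932 (-0.038 and -0.027), Zfp946 (-0.037 and -0.038), Zfp942 (-0.052 and -0.056), Zfp931 (-0.13 and -0.14) and Fam208a (-0.16 and -0.16). The same 2 settings gave 0 and 0 higher DEGs for the other Zfp genes, 0 and 1 lower, and 0 and 0 higher corepressor DEGs, and the cause was not tested. Without a fold change minimum the other Zfp genes had 59 higher and 22 lower DEGs and the corepressors 12 higher and 6 lower. Scaling by library totals alone gave 4 lower DEGs among the other Zfp genes, 17 higher members, and 86.0% of all DEGs higher in place of 75%. Leaving out each mouse gave 18 to 34 higher DEGs for the other Zfp genes and 0 to 1 lower for the corepressors. The replicate numbers are shared by both groups but say nothing of a pairing. Deviations of same-numbered mice had a correlation of 0.24 over 2 pairs, and a replicate block gave 15 higher member DEGs, 13 of them among the 14. In simulated data, genes changed 1.5-fold were recovered in 46.3% of cases, counted by adjusted p and direction without the fold change minimum. The changed genes were drawn above a minimum mean CPM, so recovery at the low counts of some members was not measured.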
